A study of Homo sapiens with 24 samples.

Results

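The replication-dependent histone genes encode the 4 core histones H2A, H2B, H3 and H4, around which DNA is wound, and the linker histone H1, which binds DNA between nucleosomes. Probe sets of a human expression array were taken as members when the array's gene table named a gene of these families (H1-1 to H1-6, or a numbered H2AC, H2BC, H3C or H4C gene, including the older names that start with HIST), and 2 pseudogene probe sets were left out. This gave 69 of 54675 probe sets. Of these, 49 stood for a single gene and read 43 genes, where the whole array gave 19775 genes a single-gene probe set. The other 20 were shared by several histone genes, whose coding sequences are nearly alike, and are reported apart. A further 19 genes were read only through shared probe sets, and 8 of the 70 protein-coding genes that the naming rule covers (H2AC1, H2AC20, H2AC21, H2BC18, H2BC26, H3C13, H3C14 and H3C15) had no probe set.

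RNA came from HEK293, a human embryonic kidney cell line, in 8 groups of 3 arrays labelled as biological replicates. All plasmid groups were transiently transfected for 24 h with pCDNA3, the empty vector, with Flag-tagged wild type SIRT6, or with Flag-tagged SIRT6 H133W, a catalytically dead form of this NAD-dependent deacetylase. An untransfected group received no DNA. Each of the 4 conditions was measured resting and after stimulation with TNFα at 10 ng/ml, for a time on which the sources differ (4 h or 1 h). Transient transfection reaches only some of the cells, and RNA was taken from all of them, so more cells with a transcript and more transcript per cell cannot be told apart. The endogenous SIRT6 gene was present in every group. Values are log2 intensities after RMA, a normalization that brings the arrays to a common distribution, and a log2 difference of 1 is a doubling.

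The array labels were checked first. The SIRT6 probe set 233179_x_at averaged 8.58 in empty vector, 9.34 in SIRT6 and 9.73 in H133W arrays at rest, and 8.84, 9.43 and 9.64 with TNFα, while 219613_s_at ranged from 8.16 to 8.94 over all arrays. Neither probe set told the groups fully apart, and whether either lies in the cloned coding sequence was not determined, so SIRT6 does not settle the labels. The mean of the 9 HEK293 markers read lay between 8.71 and 8.93 in every array, although NEFM, PAX2 and LHX1 were low. Blood and endothelial markers averaged below 4 in all arrays, and fibroblast markers between 4.34 and 4.81, with COL1A1 and COL3A1 higher, up to 8.02. The third H133W array with TNFα stood apart, with a difference of 3.025 (log2) between the 3′ and 5′ probe sets for actin against 1.334 to 2.051 elsewhere and a quality weight of 0.0844. The resting untransfected array 2 (weight 0.311) and empty vector array 2 (weight 0.383) followed, and results that rest on these 3 arrays are given with and without them.

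Replication-dependent histone genes are transcribed mostly in S phase, when new DNA must be packaged. Their messages end in a conserved stem-loop bound by SLBP rather than in a poly(A) tail, after cleavage guided by the U7 small nuclear ribonucleoprotein. Labelling primed from poly(A) tails, standard for this kind of array, therefore reads mainly the polyadenylated forms of these transcripts, and a level here is not the amount of total histone mRNA.

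The sequences just before the transcription start are shown for the genes on which the results turn (H2AC6, both annotated starts of H3C6, H4C8 and H4C11), for H4C5, whose promoter resembles that of H4C8, and for H4C12, whose transcript was the design target of the H4C11 probe set. They are RefSeq sequences of GRCh38.p14, 150 bases each, 5′ to 3′ on the gene's own strand, ending at the base before the start: H2AC6 chr6:26124022-26124171 (+), H3C6 chr6:26224028-26224177 (+) and chr6:26224985-26225134 (+), H4C8 chr6:26285535-26285684 (-), H4C5 chr6:26204460-26204609 (+), H4C11 chr6:27823942-27824091 (+) and H4C12 chr6:27831561-27831710 (-). Capitals mark exact matches, on either strand, to 5 motifs known from promoters. These are the TATA box, searched as TATAAA, the CCAAT box, the octamer ATTTGCAT that Oct factors bind, the cyclic AMP response element TGACGTCA and the core of the histone H4 promoter element called site II, searched as GGTCCG.
H2AC6: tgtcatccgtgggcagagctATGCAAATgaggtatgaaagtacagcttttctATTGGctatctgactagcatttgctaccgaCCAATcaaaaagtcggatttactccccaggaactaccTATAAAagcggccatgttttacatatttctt
H3C6 upstream start: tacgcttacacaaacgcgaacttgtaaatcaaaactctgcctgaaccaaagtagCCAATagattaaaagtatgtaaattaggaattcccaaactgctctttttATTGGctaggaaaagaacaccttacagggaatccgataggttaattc
H3C6 downstream start: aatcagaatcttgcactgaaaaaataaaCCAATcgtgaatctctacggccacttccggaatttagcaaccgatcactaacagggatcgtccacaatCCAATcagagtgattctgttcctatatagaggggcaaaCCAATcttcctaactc
H4C8: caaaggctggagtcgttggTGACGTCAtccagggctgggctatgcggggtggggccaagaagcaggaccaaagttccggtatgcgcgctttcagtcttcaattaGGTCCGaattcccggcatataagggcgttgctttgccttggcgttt
H4C5: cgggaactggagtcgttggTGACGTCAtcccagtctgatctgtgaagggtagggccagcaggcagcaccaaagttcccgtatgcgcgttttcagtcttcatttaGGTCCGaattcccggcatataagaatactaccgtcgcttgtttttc
H4C11: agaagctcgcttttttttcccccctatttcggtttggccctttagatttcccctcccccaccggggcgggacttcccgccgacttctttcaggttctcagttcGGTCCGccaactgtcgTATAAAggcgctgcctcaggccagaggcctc
H4C12: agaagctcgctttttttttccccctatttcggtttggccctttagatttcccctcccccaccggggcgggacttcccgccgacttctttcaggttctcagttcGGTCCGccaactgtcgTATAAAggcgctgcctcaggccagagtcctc

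Within the bases printed, H2AC6 carries the octamer, CCAAT on both strands and TATAAA, and H3C6 only CCAAT at either start, though TATAAA lies further out before its upstream start. H4C8 and H4C5 each hold TGACGTCA and GGTCCG at the same distances from the start and were identical at 115 of 150 positions (76.7%), and H4C11 and H4C12 at 148 of 150 (98.7%). In the 250 bases before the start, TATAAA was found at 67.4% of the 43 annotated starts of 40 members, against 10.7% of 35116 starts of all genes, CCAAT at 88.4% against 32%, and the octamer at 39.5% against 1.63%. The octamer occurred before 6 of 8 H2A and 11 of 15 H2B starts and before no start of the other classes. GGTCCG lay before 6 of 7 H4 starts (18.6% of member starts against 9.43%), TGACGTCA before starts of H3C2, H4C5, H4C8, H2BC12, H2AC14, H2BC14 and H2AC16 (18.6% against 1.65%), and AAACACA, known from H1 promoters, before all 6 H1 starts and no others (14% against 4.82%). No promoter was held for H2BC12L, H3C11 and H4C1. These starts are not all separate. The 250-base windows of H2AC6 and H2BC4, which are transcribed away from each other, share 245 bases, those of H2AC14 and H2BC14 share 244, of H2AC17 and H2BC17 239 and of H2AC15 and H2BC15 193, and the paired starts of H2BC5 and H2BC12 nearly coincide. Counted once per stretch of overlapping windows, TATAAA was found in 24 of 37 stretches, CCAAT in 32, the octamer in 13, TGACGTCA in 6, GGTCCG in 8 and AAACACA in 6.

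A few histone genes were called higher in H133W than in empty vector cells, while most others of the same families were not called. A probe set was called when its limma p-value, adjusted over all 54675 probe sets, was below 0.05 and its change exceeded 1.5-fold. At rest 8 of 69 members were called higher and none lower, where 0.702% of all probe sets were called higher and 0.0677% lower. With TNFα 9 of 69 were called higher and none lower, against 1.05% and 0.346% of all. At an unadjusted p below 0.05, limma placed 16 members higher and 3 lower at rest and 20 higher and 2 lower with TNFα, 19 and 22 in all, beside 14.7% and 20.4% of all probe sets. The single-gene members called at rest were H2AC6, both probe sets of H4C8, a probe set of H3C6 and that of H4C11, and with TNFα the other H3C6 probe set was added. Of these, 215071_s_at of H2AC6, 208180_s_at of H4C8 and 214463_x_at of H4C11 have names ending in _s_at or _x_at and not in plain _at. Single-gene here follows the array's gene table, and signal from other, nearly alike histone genes was not tested. The median change over the 69 members was 0.02 at rest and 0.10 with TNFα, where all probe sets had medians of -0.02 and -0.01. Of the 69, 38 lay above 0 at rest and 53 with TNFα, beside 45.5% and 48.4% of all probe sets. Some uncalled probe sets were dim, such as those of H4C7 (mean 3.37) and H2BC4 (mean 3.86), and a rise may not be visible in them.

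**Figure D1:**
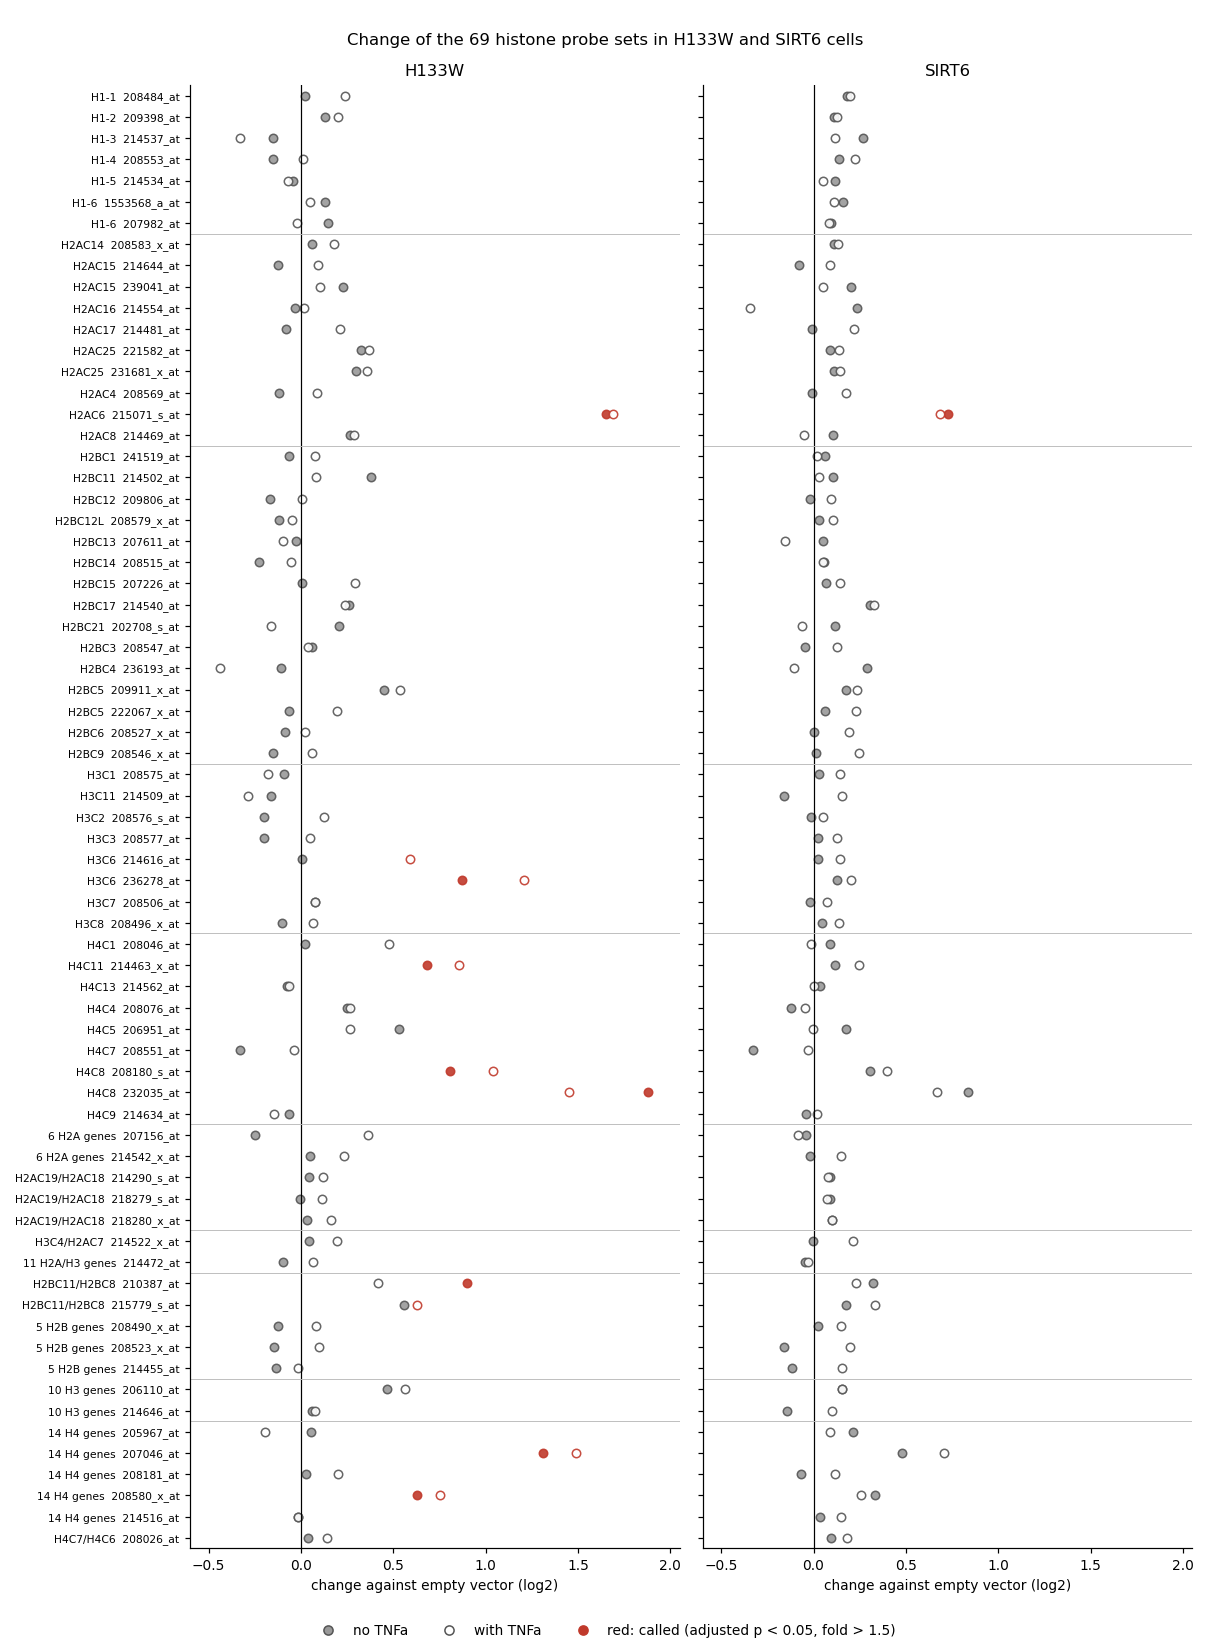
Change of all 69 histone probe sets against empty vector, in log2 units, for H133W and SIRT6 cells at rest and with TNFα, with each point a probe set and red points those called. Most points lie near 0, and the called ones reach 1.88 in H133W and 0.73 in SIRT6 cells.

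H2AC6 (chr6:26124172-26124690), which encodes a histone H2A, gave the change with the smallest adjusted p-value among the members. At rest its probe set 215071_s_at read 8.28, 7.87 and 8.24 in untransfected, 8.59, 8.46 and 8.58 in empty vector, 9.24, 9.22 and 9.35 in SIRT6 and 10.25, 10.08 and 10.25 in H133W arrays. With TNFα the values were 7.97, 8.02 and 7.93, then 8.36, 8.28 and 8.34, then 9.13, 8.96 and 8.95, then 10.06, 10.05 and 9.94. The 4 conditions followed each other in this order without overlap, at rest and with TNFα. H133W exceeded empty vector by 1.65 ± 0.09 (SE, n = 3 against 3, 3.14-fold, limma adjusted p = 1.02e-09) at rest and by 1.69 ± 0.09 (adjusted p = 6.64e-10) with TNFα. Wild type SIRT6 exceeded it by 0.73 (adjusted p = 0.0011, a call lost when the 6 arrays were fitted alone) and 0.68 (adjusted p = 0.00153), and H133W exceeded SIRT6 by 0.92 (adjusted p = 1.51e-05) and 1.01 (adjusted p = 3.76e-06). Empty vector lay above untransfected by 0.41 (limma adjusted p = 0.0592) at rest and 0.35 (adjusted p = 0.118) with TNFα, which did not pass.

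The other 9 single-gene H2A probe sets held no call in any comparison, and 4 of the 10 with H2AC6 had an unadjusted limma p below 0.05 for H133W against empty vector at rest and 6 with TNFα, all of them higher. Those of H2AC25 (earlier HIST3H2A), on chromosome 1, were higher in every H133W than in every empty vector array. At rest the differences were 0.32 and 0.30 (adjusted p = 0.069 and 0.0794). With TNFα they were 0.37 and 0.36 (adjusted p = 0.027 and 0.0232). All lay below the 1.5-fold threshold. Dropping only the third H133W array gave 0.275 and 0.289 with TNFα (limma adjusted p = 0.129 and 0.105), past neither threshold. Dropping all 3 low-weight arrays gave the same differences, with limma adjusted p = 0.015 and 0.0415. H2BC4, the H2B gene 0.2 kb from H2AC6, read 4.04, 3.52 and 3.70 in empty vector and 3.58, 3.71 and 3.66 in H133W arrays at rest. Its difference was -0.11 (95% interval -0.54 to 0.33) at rest and -0.44 with TNFα, where the third H133W array read 2.97, and this probe set is dim (mean 3.86), so a rise of H2BC4 may not be visible in it.

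None of the 15 single-gene H2B probe sets was called, while limma placed 2 higher and 2 lower in H133W than in empty vector cells at an unadjusted p below 0.05 at rest, and 1 each way with TNFα. H2BC12, a gene with a long model that can end in a polyadenylated message, read 11.08, 10.99 and 10.94 in empty vector and 10.87, 10.84 and 10.79 in H133W arrays at rest, a difference of -0.17 (adjusted p = 0.18) that was 0.01 with TNFα. H2BC12L and H2BC6 differed by -0.12 and -0.09 at rest. The probe sets of H2BC5 went apart. 209911_x_at read 6.41, 6.64 and 6.55 in empty vector and 6.96, 6.91 and 7.07 in H133W arrays, and was higher by 0.45 (adjusted p = 0.00378) at rest and 0.54 (adjusted p = 0.000525) with TNFα, both under 1.5-fold (0.59 and past it with TNFα without the first H133W array). 222067_x_at differed by -0.07 and 0.20, neither past the test, so the 2 probe sets of this gene disagree.

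Among the shared H2B probe sets, both of those for H2BC11 and H2BC8 carried a call. 210387_at read 4.42, 4.25 and 4.44 in empty vector and 5.39, 5.26 and 5.15 in H133W arrays at rest, a rise of 0.90 (adjusted p = 0.0291) that failed when any of these 6 arrays was left out (adjusted p = 0.0592 to 0.117). Without the 3 arrays of lowest weight it was called, with 0.84 (limma adjusted p = 0.0109). With TNFα it differed by 0.42 (adjusted p = 0.303), and by 0.73 (adjusted p = 0.0446) without the third H133W array, which read 4.15. 215779_s_at rose by 0.63 (adjusted p = 0.0016) with TNFα, a call lost when the 6 arrays were fitted alone (adjusted p = 0.0682) or without the second empty vector array (0.58, under 1.5-fold). At rest it was 0.56 higher (adjusted p = 0.00605, under 1.5-fold), and passed with 0.60 without the second H133W and 0.62 without the third empty vector array. H2BC11's own probe set 214502_at was higher by 0.38 (adjusted p = 0.0215) and 0.08.

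H3C6 (chr6:26224178-26227473) encodes a histone H3 and has a gene model over 1000 bases long. At rest 236278_at read 6.12, 5.72 and 5.97 in untransfected, 6.28, 6.43 and 6.47 in empty vector, 6.43, 6.51 and 6.61 in SIRT6 and 7.31, 7.21 and 7.28 in H133W arrays. With TNFα the values were 5.92, 6.31 and 5.95, then 6.38, 6.38 and 6.51, then 6.57, 6.50 and 6.81, then 7.46, 7.71 and 7.73. H133W arrays lay above all the others in both states, while SIRT6 and empty vector arrays overlapped. H133W exceeded empty vector by 0.87 ± 0.11 (SE, adjusted p = 0.000119) at rest and 1.21 ± 0.11 (adjusted p = 1.83e-06) with TNFα. SIRT6 differed from empty vector by 0.12 (95% interval -0.11 to 0.36) and 0.20 (-0.04 to 0.44), and H133W exceeded SIRT6 by 0.75 (adjusted p = 0.00252) and 1.005 (adjusted p = 0.000124).

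The other H3C6 probe set, 214616_at, was dim, between 2.51 and 3.57 over the 24 arrays. It differed by 0.01 at rest and rose by 0.59 (adjusted p = 0.00377) with TNFα, a value of 0.42 without the first H133W array of that state and of 0.53 without the second empty vector array, both under 1.5-fold, and with an adjusted p of 0.314 when the 6 arrays were fitted alone. No other single-gene H3 probe set was called. H3C11 and H3C8 differed by -0.16 and -0.10 at rest, and H3C3 and H3C2 by -0.20 each. The shared probe set 206110_at, designed on H3C10 and assigned to 10 H3 genes, H3C6 among them, was higher by 0.46 (adjusted p = 0.0485) and 0.56 (adjusted p = 0.0111), under 1.5-fold in both states, and by 0.59 (adjusted p = 0.0209) with TNFα once the third H133W array was left out. Another probe set assigned to the same 10 genes, 214646_at, was not called and is dim (mean 2.67).

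H4C8 (chr6:26285126-26285534), an H4 gene, had both of its single-gene probe sets called. At rest 232035_at read 4.82, 4.34 and 5.04 in untransfected, 4.70, 5.03 and 4.35 in empty vector, 5.65, 5.38 and 5.57 in SIRT6 and 6.71, 6.42 and 6.60 in H133W arrays. With TNFα the values were 4.48, 4.66 and 4.50, then 4.69, 4.77 and 4.54, then 5.29, 5.26 and 5.45, then 6.34, 5.98 and 6.03. SIRT6 arrays lay between empty vector and H133W arrays without overlap in both states. H133W exceeded empty vector by 1.88 ± 0.16 (SE, 3.68-fold, adjusted p = 7.69e-07) at rest and by 1.45 ± 0.16 (2.73-fold, adjusted p = 1.6e-05) with TNFα, and SIRT6 by 1.04 (adjusted p = 0.00311) and 0.78 (adjusted p = 0.0207). SIRT6 differed from empty vector by 0.84 (adjusted p = 0.0635) and 0.67 (adjusted p = 0.164), which did not pass, and without the 3 arrays of lowest weight by 1.01 (adjusted p = 0.00194) and 0.67 (adjusted p = 0.0119), which did.

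The second H4C8 probe set, 208180_s_at, read 3.84, 4.06 and 4.13 in empty vector, 4.26, 4.39 and 4.30 in SIRT6 and 4.98, 4.66 and 4.81 in H133W arrays at rest. With TNFα the values were 3.66, 3.69 and 3.83, then 4.12, 4.13 and 4.10, then 5.11, 4.72 and 4.46. The order of the groups was that of 232035_at, again without overlap. Its H133W values exceeded those of empty vector by 0.80 (adjusted p = 0.000633) and 1.04 (adjusted p = 2.95e-05, or 0.117 when the 6 arrays with TNFα were fitted alone). SIRT6 differed from it by 0.31 (adjusted p = 0.778) and 0.40 (adjusted p = 0.378).

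H4C5, whose promoter is close to that of H4C8, read 4.88, 4.45 and 5.39 in empty vector and 5.31, 5.48 and 5.52 in H133W arrays at rest. The groups overlapped, with a difference of 0.53 (95% interval 0.16 to 0.91, adjusted p = 0.131) at rest and 0.27 with TNFα. The resting difference was 0.77 (adjusted p = 0.0143) without the third empty vector array. It was 0.30 (limma adjusted p = 0.298) without the 3 arrays of lowest weight. The H4C11 probe set 214463_x_at was designed on a transcript that RefSeq now gives to H4C12, so the 2 genes cannot be told apart by it. It read 6.53, 6.40 and 6.63 in empty vector, 6.64, 6.61 and 6.64 in SIRT6 and 7.16, 7.18 and 7.27 in H133W arrays at rest, and 6.40, 6.36 and 6.24, then 6.53, 6.56 and 6.63, then 7.06, 6.79 and 7.69 with TNFα. All H133W arrays lay above the others. H133W exceeded empty vector by 0.68 (adjusted p = 0.0102) at rest. That call was lost without the third H133W (adjusted p = 0.057) or the second empty vector array (adjusted p = 0.0567). Without the 3 arrays of lowest weight it held, with 0.62 (limma adjusted p = 0.00012). With TNFα the difference was 0.85 (adjusted p = 0.00122), and 0.60 (adjusted p = 0.000994) without the third H133W array. The call with TNFα was lost (adjusted p = 0.288) when the 6 arrays were fitted alone. H4C7 showed the largest negative resting difference among the single-gene members, -0.33 (adjusted p = 0.185), in a dim probe set (mean 3.37). Without the 3 arrays of lowest weight H4C7 was at -0.24 and H3C11 lower, at -0.32.

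Of the shared H4 probe sets, 5 were assigned to the same 14 H4 genes and did not move together. 207046_at, designed on H4C14, read 5.19, 5.27 and 5.47 in empty vector, 5.64, 5.80 and 5.92 in SIRT6 and 6.59, 6.52 and 6.75 in H133W arrays at rest, and 4.84, 4.74 and 4.84, then 5.53, 5.46 and 5.54, then 6.29, 6.22 and 6.37 with TNFα. The 3 groups did not overlap in either state. The rise of H133W over empty vector was 1.31 (adjusted p = 5.73e-05) and 1.49 (adjusted p = 1.1e-05) and that over SIRT6 0.83 (adjusted p = 0.0223) and 0.78 (adjusted p = 0.02), while SIRT6 differed from empty vector by 0.48 (adjusted p = 0.584) and 0.71 (adjusted p = 0.117, or 0.00454 and called without the 3 arrays of lowest weight). 208580_x_at, designed on H4C11, rose by 0.63 (adjusted p = 0.0147) and 0.75 (adjusted p = 0.00265). The resting call was lost without H133W array 2 (adjusted p = 0.0688) or 3 (0.0503) or empty vector array 1 (0.0605) or 2 (0.0614). It held, with 0.60 (limma adjusted p = 0.00041), without the 3 arrays of lowest weight. The call with TNFα was lost when the 6 arrays were fitted alone (adjusted p = 0.254), and without the third H133W array the value was 0.55 and under 1.5-fold. The other 3, 205967_at, 214516_at and 208181_at, differed by 0.06, -0.02 and 0.02 at rest and by -0.19, -0.02 and 0.20 with TNFα. Of these, 208181_at, designed on H4C8, averaged 2.40 over the 24 arrays, and a probe set this dim may not show a rise. 205967_at was designed on H4C3 and 214516_at, with a mean of 4.29, on H4C2. Why the 5 did not move together was not tested.

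**Figure D2:**
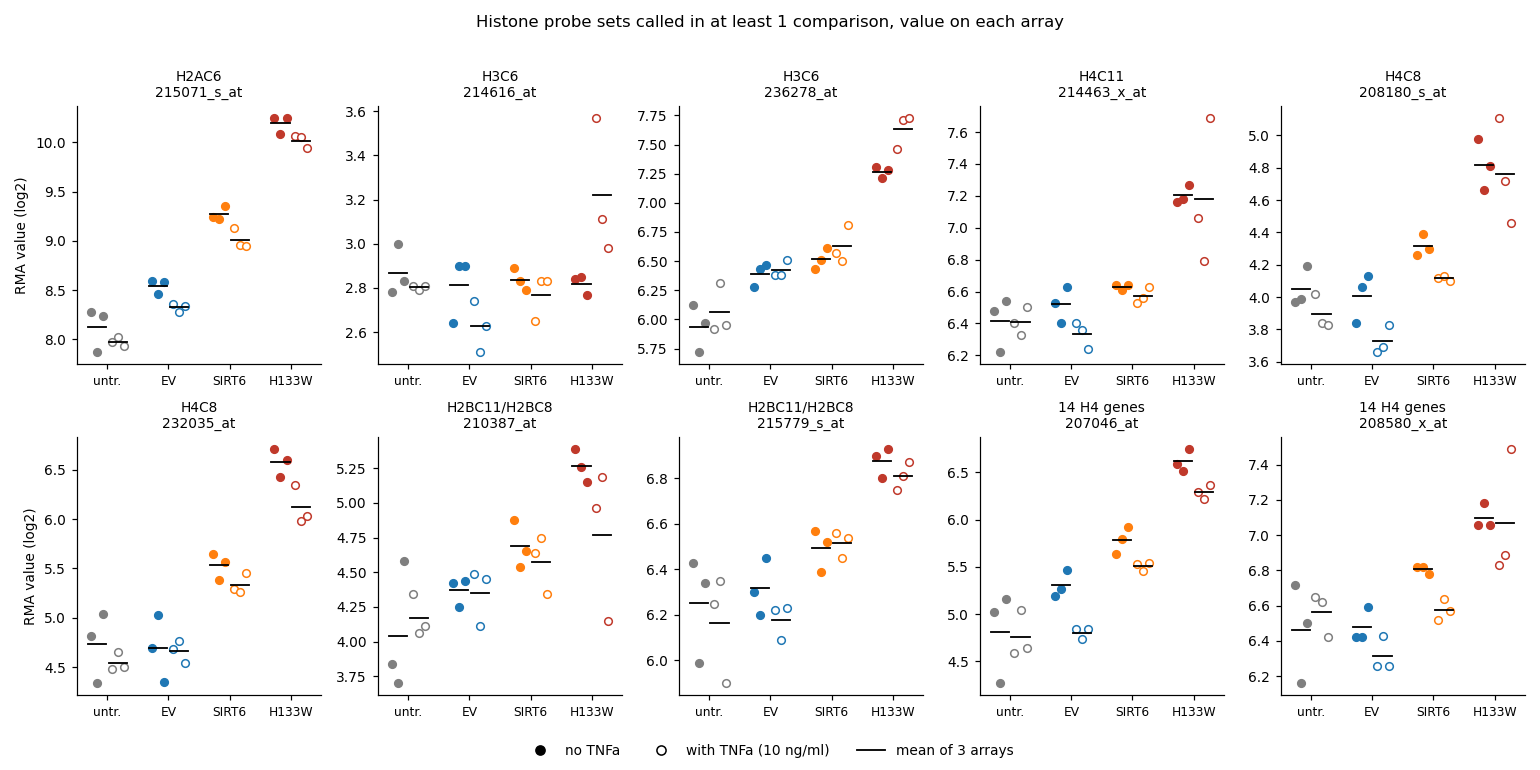
Log2 intensity of the 10 called histone probe sets in each of 24 arrays, with 1 panel a probe set, points for arrays and bars for the mean of 3 in untransfected (untr.), empty vector (EV), SIRT6 and H133W groups at rest (filled) and with TNFα (open). The H133W arrays sit above the empty vector arrays in most panels, and for H2AC6 the SIRT6 arrays at 9.24, 9.22 and 9.35 lie between them.

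Wild type SIRT6 moved fewer histone probe sets past the test than H133W did, with H2AC6 the single member called against empty vector. That was 1 of 69 higher in each state, where 0.0348% of all probe sets were called higher at rest and 0.0604% with TNFα. None was called lower, against 0% and 0.00914% of all, and at an unadjusted p below 0.05 limma placed 7 members higher and 1 lower at rest and 13 higher and 1 lower with TNFα, beside 5.57% and 6.61% of all probe sets in either direction. Members lay more often above than below 0, 49 of 69 at rest and 58 of 69 with TNFα, beside 48.8% and 48.4% of all probe sets, with medians of 0.09 and 0.13. These counts share their empty vector arrays with the H133W comparisons and are no separate evidence. Directly against SIRT6, H133W was higher in 4 of 69 members at rest and 6 of 69 with TNFα, where 0.106% and 0.278% of all were called higher and 0.0128% and 0.0549% lower. The 4 were H2AC6, 236278_at of H3C6, 232035_at of H4C8 and the shared 207046_at, and with TNFα 208180_s_at of H4C8 (0.64, adjusted p = 0.0116) and H4C11 (0.61, adjusted p = 0.0444) joined them. Of these 6, 2 were called when any SIRT6 array with TNFα was left out (H2AC6 and 236278_at), and 0 when the 6 arrays were fitted alone. Without the third H133W array, H4C11 fell short with 0.35 (adjusted p = 0.112) and 207046_at with 0.75 (adjusted p = 0.0688). Beside this, the SIRT6 probe set 233179_x_at differed between H133W and SIRT6 cells by 0.40 (adjusted p = 0.796) and 0.21 (adjusted p = 0.78). Over empty vector it was higher in H133W cells by 1.15 (adjusted p = 0.0357) and 0.80 (adjusted p = 0.12), and in SIRT6 cells by 0.75 (adjusted p = 0.749) and 0.59 (adjusted p = 0.781). The paper reports Western blots for SIRT6 and Flag on these cells, but the data used here hold no protein values. In H133W against SIRT6 cells none of the members was called lower. At an unadjusted p below 0.05 limma placed 15 higher and 5 lower at rest and 17 higher and 4 lower with TNFα, beside 8.69% and 15.9% of all probe sets.

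TNFα by itself called no histone probe set in any of the 4 conditions. Of all probe sets it called 0.775% in untransfected, 0.86% in empty vector, 0.845% in SIRT6 and 1.12% in H133W cells, and NF-κB target genes listed as its readout rose, CXCL1 by 4.84 and CCL20 by 6.10 in empty vector cells. At an unadjusted p below 0.05, limma placed 6, 11, 7 and 10 of the 69 members in these conditions, of which 6, 11, 6 and 6 were lower, beside 8.82%, 12%, 10.5% and 18.3% of all probe sets, and a plain linear model called none either. Of the 20 shared probe sets, 3 were higher with TNFα in untransfected, 6 in SIRT6 and 6 in H133W cells. In empty vector cells none was, where 44.7% of all probe sets lay above 0. Several of the 20 are assigned to the same genes and are not separate readings. The median over the 69 in empty vector cells was -0.15, beside -0.02 for all probe sets. The lowest adjusted p there, 0.0128, belonged to 214542_x_at, shared by 6 H2A genes, which read 7.60, 7.50 and 7.72 at rest and 7.25, 7.31 and 7.30 with TNFα, a difference of -0.32 that stayed under 1.5-fold. The groups did not overlap. Whether the plasmid's effect differed with TNFα was tested as an interaction, which called no member for H133W (0.00366% of all called) or SIRT6 (0% of all called), with 5 and 2 members at an unadjusted limma p below 0.05, beside 8.46% and 2% of all probe sets.

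The linker histone genes H1-3 and H1-4 had lower values in empty vector than in untransfected cells, though neither passed both thresholds. Against untransfected cells, empty vector cells had no member called at rest (0.0933% of all called) or with TNFα (0.0329% of all called), and limma placed 9 members at an unadjusted p below 0.05 in each state, 6 and 7 of them lower, beside 12.4% and 11.5% of all probe sets, where a plain linear model called none either. H1-3 read 9.56, 9.06 and 9.71 in untransfected, 8.73, 8.52 and 9.01 in empty vector, 8.99, 9.11 and 8.97 in SIRT6 and 8.59, 8.64 and 8.58 in H133W arrays at rest. With TNFα the values were 9.08, 9.33 and 9.28, then 8.60, 8.53 and 8.32, then 8.54, 8.70 and 8.55, then 8.40, 8.22 and 7.83. Untransfected and empty vector arrays did not overlap. Empty vector differed from untransfected by -0.69 (95% interval -1.01 to -0.37, adjusted p = 0.0674) at rest and -0.75 (-1.07 to -0.43, adjusted p = 0.0641) with TNFα, and without the 3 arrays of lowest weight by -0.77 (adjusted p = 0.0143) and -0.75 (adjusted p = 0.00224).

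H1-4 read 6.85, 6.43 and 6.68 in untransfected, 6.09, 5.99 and 6.21 in empty vector, 6.22, 6.18 and 6.30 in SIRT6 and 5.96, 6.04 and 5.84 in H133W arrays at rest, so every untransfected array lay above every plasmid array. The same held with TNFα, where untransfected arrays read 6.52, 6.40 and 6.27 and the highest plasmid array 6.16. Empty vector differed from untransfected by -0.56 (adjusted p = 0.0379, under 1.5-fold) at rest and -0.52 (adjusted p = 0.0713) with TNFα, and the resting value was -0.62 (adjusted p = 0.0479) without the 3 arrays of lowest weight. H1-1 differed by -0.33 and -0.16, H1-2 by -0.19 and -0.28, H1-5 by -0.12 and -0.05, and the probe sets of H1-6 by -0.39 and -0.22 at rest and -0.15 and -0.08 with TNFα. All 7 H1 probe sets lay below 0 in both states, with medians of -0.33 and -0.16, where 49.3% and 44% of all probe sets lay above 0. The probe sets of H1-6 are for the same gene and dim (means 3.54 and 2.88), so the 7 are not separate readings of the family. Of the 7, 4 at rest and 3 with TNFα had an unadjusted limma p below 0.05, beside 12.4% and 11.5% of all. Against empty vector, H133W differed by 0.13 and 0.20 for H1-2, -0.15 and -0.33 for H1-3 and -0.15 and 0.01 for H1-4, none past the test. Without the third H133W array with TNFα, H1-3 differed by -0.17 and H1-4 by -0.08. Of the 7 H1 probe sets, 0 had an unadjusted limma p below 0.05 for H133W against empty vector at rest and 2 with TNFα, beside 14.7% and 20.4% of all.

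**Figure D3:**
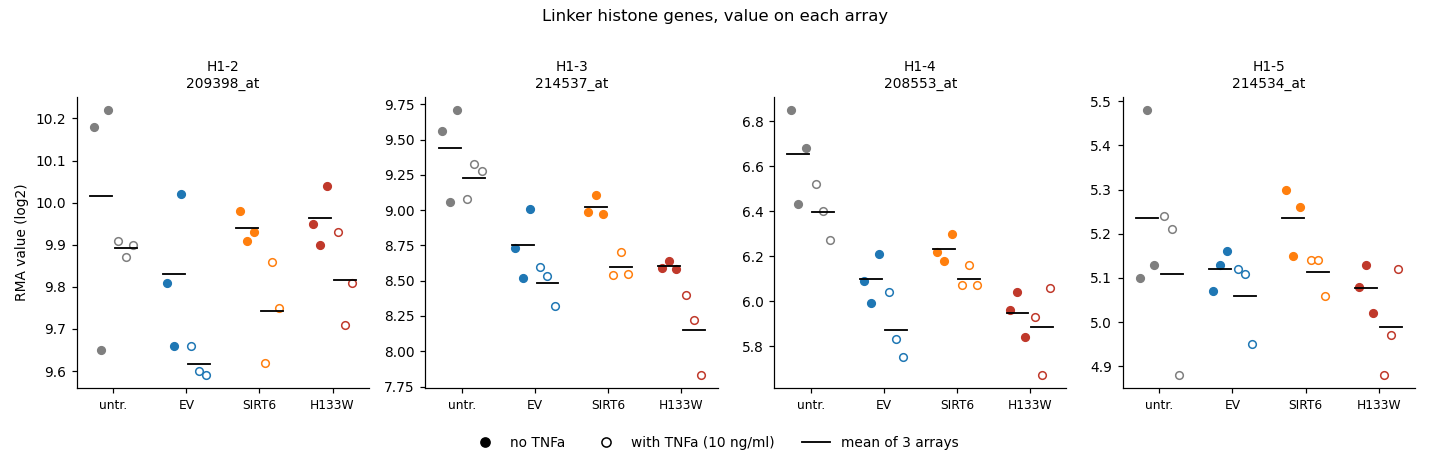
Log2 intensity of the linker histone genes H1-2, H1-3, H1-4 and H1-5 in each array, with points for arrays and bars for the mean of 3, by plasmid at rest and with TNFα. For H1-4 the resting untransfected arrays (6.43 to 6.85) lie above all plasmid arrays.

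The genes with a called single-gene probe set did not lie next to one another. Of the 43 genes, 40 lie on chromosome 6, 2 on chromosome 1 and H2BC12L on chromosome 21. Counted along chromosome 6, H2AC6 is the 12th, H3C6 the 19th and H4C8 the 25th, with uncalled genes between them, among them the dim H4C7 (mean 3.37). H4C11 is the 32nd, beyond a gap of 846.8 kb that follows H4C8. The next gene after that gap, H2BC11, was uncalled by its own probe set, but both probe sets it shares with H2BC8 carried a call. Nor were the genes with a called single-gene probe set the long models alone. Among 7 probe sets of the 5 genes with models over 1000 bases (H2BC12, H2BC21, H2BC4, H2BC5 and H3C6), 1 was called at rest and 2 with TNFα, and among the other 42 single-gene probe sets 4 were called in each state.

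**Figure D4:**
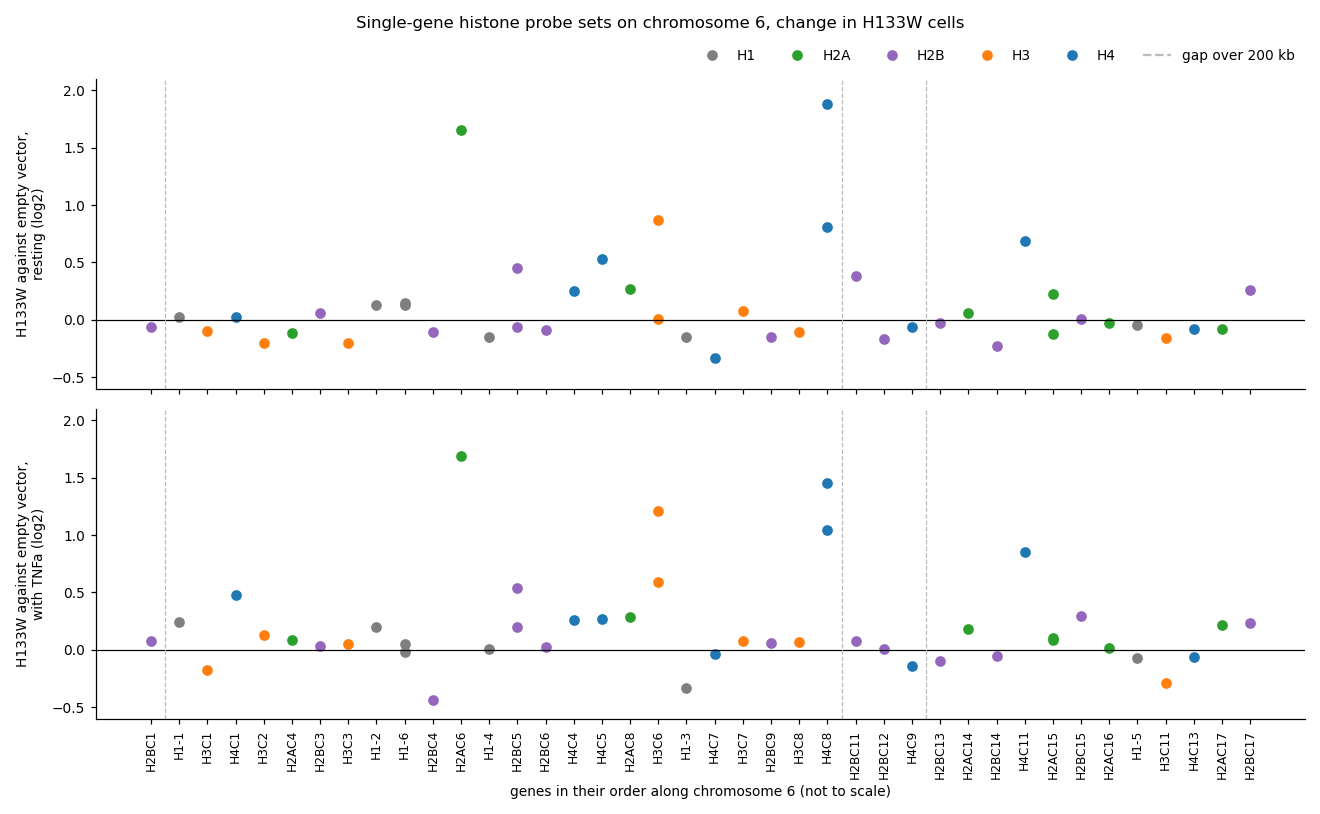
Change of H133W against empty vector (log2, vertical axis) for single-gene histone probe sets, set out by the order of the genes along chromosome 6 (horizontal axis), at rest and with TNFα. The called points, such as H4C8 at 1.88 and H2AC6 at 1.65 at rest, have uncalled single-gene probe sets on either side. Among them is H2BC11's own at 0.38 after H4C8, while the called probe sets shared by H2BC11 and H2BC8 are not drawn.

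Of 37 genes that transcribe, cleave or degrade histone messages, 35 were read, and ZNF473 alone was called. Of all probe sets, 0.702% at rest and 1.05% with TNFα were called higher in H133W than in empty vector cells. In SIRT6 cells these shares were 0.0348% and 0.0604%. ZNF473, also known as ZFP100, is the zinc finger protein that joins SLBP to the U7 particle. It read 8.35, 8.47 and 8.48 in empty vector, 8.93, 9.17 and 8.91 in SIRT6 and 9.21, 9.27 and 9.29 in H133W arrays at rest, and 8.27, 8.34 and 8.31, then 8.93, 8.91 and 8.85, then 9.33, 9.35 and 9.68 with TNFα. The groups followed each other without overlap. H133W lay above empty vector by 0.82 (adjusted p = 8.91e-05) and 1.15 (adjusted p = 1.24e-06), and SIRT6 did so by 0.57 (adjusted p = 0.0424, under 1.5-fold) and 0.59 (adjusted p = 0.0248). The median of the list in H133W against empty vector cells was -0.02 at rest and 0.03 with TNFα. There limma placed 5 listed genes higher and 2 lower at rest at an unadjusted p below 0.05. With TNFα it placed 8 higher and 3 lower. Of all probe sets, 14.7% and 20.4% passed in either direction.

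Cell cycle genes were seldom called. Of 31 S phase and DNA replication genes read, none was called at rest. At an unadjusted p below 0.05, limma placed 2 higher and 4 lower, beside 14.7% of all probe sets in either direction. With TNFα it placed 8 higher and 2 lower, beside 20.4% of all. The licensing factors CDT1 (0.69, adjusted p = 0.00029) and ORC1 (0.66, adjusted p = 0.0178) were called higher in H133W there, beside 1.05% of all. ORC1 was 0.36 and under 1.5-fold without the third H133W array. No S phase gene was called lower. The list's medians were -0.01 and 0.05. No gene of 24 for G2 and mitosis was called, although limma placed 14 lower at rest and 5 with TNFα at an unadjusted p below 0.05. It placed none higher, where 14.7% and 20.4% of all probe sets passed in either direction. All 24 lay below 0 at rest and all but 1 with TNFα, where 45.5% and 48.4% of all probe sets lay above 0. The medians were -0.18 and -0.08, with TTK at -0.42 (adjusted p = 0.0411, under 1.5-fold) and PLK1 at -0.34 at rest. Of 9 genes of cell cycle exit, GADD45B rose by 0.77 (adjusted p = 0.000149) at rest. Of 9 replacement histone variants, whose messages are polyadenylated, CENPA, the centromeric H3, fell by 0.59 (adjusted p = 0.0156) with TNFα, which was -0.37 (adjusted p = 0.0682) without the third H133W array. Of 21 histone chaperones, CDAN1 rose by 0.61 (adjusted p = 0.0312) with TNFα, 0.34 (adjusted p = 0.134) without that array.

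Stress genes rose in the same comparison. Of 12 read, 7 were called higher in H133W than in empty vector at rest and 10 with TNFα (8 and 8 without the 3 arrays of lowest weight). In SIRT6 cells 3 were called higher in each state. Of all probe sets, 0.702% and 1.05% were called higher in H133W and 0.0348% and 0.0604% in SIRT6 cells. The list was chosen with earlier results of these data known, so these counts are no independent test. HSPA6, an inducible heat shock protein, rose by 3.48 (adjusted p = 3.14e-11) and CRYAB, a small heat shock protein, by 3.78 (adjusted p = 1.62e-16) at rest. Their part in the histone changes was not tested. In empty vector against untransfected cells, 2 of the 12 stress genes were called higher in each state, beside 0.0933% and 0.0329% of all called in either direction. Of the 9 TNFα readout genes, RELB was called in H133W cells at rest, higher by 0.89 (adjusted p = 0.0155), and none with TNFα, where CXCL8 was called higher and VCAM1 lower without the third H133W array.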

How the data were processed

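The authors hybridised RNA to Affymetrix HG-U133 Plus 2.0 arrays and deposited log2 values normalized by RMA in ArrayStudio, 1 per probe set and array. Here, limma (version 3.58.1, R 4.3.3) fitted 1 mean per group to all 24 arrays and 54675 probe sets, where the methods name a general linear model, with Benjamini-Hochberg adjustment of the p-values over every probe set. Intervals are 95% intervals with 16 residual and 3.47 prior degrees of freedom. The text names members called in any comparison of 2 groups, the 3 brightest single-gene members and the 2 largest uncalled changes of each class, other probe sets of those genes, and up to 3 genes of each list. Other members named beside these (H1-1, H1-5, H1-6, H2BC4, 206110_at, 214646_at, 214542_x_at, 205967_at, 208181_at and 214516_at) were chosen after their values were seen. Members and lists were chosen with earlier results of these data known. Gene names come from the platform table updated to current symbols, and a list gene was read by its brightest single-gene probe set. Promoter motifs were exact matches on either strand in RefSeq promoters, and every probe set was used whatever its brightness. The fit was tested on simulated data with known changes. Alternatives were a filter on dim probe sets, quantile normalization, array weights, median centring, a variance trend, the arrays of a comparison alone, a plain linear model, other probe set choices, a replicate block and leaving out arrays. For the gene lists and for H1-3 and H1-4, leaving out the arrays of low weight was chosen after seeing the data. The separate lengths of stimulation in the sources, 4 h and 1 h, could not be reconciled. The number of arrays, 3 in a group, limits the precision.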

Additional observations from a re-analysis of the deposited data

How the results depend on the processing

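The counts of called members were recomputed under each alternative. Against empty vector, the 8 members called in H133W at rest became 5 without dim probe sets, 2 among single-gene probe sets of the plain _at type and 4 with 1 probe set per gene. The 9 with TNFα became 4 from the arrays of that comparison alone, 3 among plain _at probe sets and 4 with 1 per gene. The 1 member called in SIRT6 at rest became 0 with the arrays alone and among plain _at probe sets, since the H2AC6 probe set is of another type, and 2 without the 3 arrays of lowest weight or with array weights. The 1 with TNFα became 2 with the arrays alone, 3 without those 3 arrays or with weights, and 0 among plain _at probe sets. H133W against SIRT6 went from 4 to 2 among plain _at probe sets at rest, and with TNFα from 6 to 0 with the arrays alone and 2 among plain _at probe sets. TNFα in empty vector cells went from 0 to 1 (214542_x_at, lower) with no fold threshold. Empty vector against untransfected went from 0 at rest to 1 without dim probe sets (H1-3), 1 with quantile normalization or no fold threshold (H1-4) and 2 without the 3 arrays or with weights, and with TNFα from 0 to 1 without the 3 arrays (H1-3) and 2 with weights. Leaving out 1 array at a time gave 5 to 9 for H133W against empty vector at rest, the 5 without H133W array 3 or empty vector array 2, and 7 to 11 with TNFα. It gave 1 to 2 for SIRT6 at rest, the 2 without empty vector array 2, and 1 with TNFα. It gave 3 to 4 for H133W against SIRT6 at rest and 2 to 6 with TNFα, the 2 without any SIRT6 array. It gave 0 to 2 for TNFα in H133W cells, where H2BC21 and H4C1 were called without array 1 and H2BC21 without array 2, 0 to 2 for empty vector against untransfected at rest (2 without untransfected array 2) and 0 to 1 with TNFα (1 without empty vector array 1). It gave 0 for TNFα in the other conditions and for the interactions. Causes were not tested where the construction of the alternative does not show them. The replicate block left all 14 counts as they were (8, 9, 1, 1, 4, 6 and 0 for the rest), and a plain linear model changed only 6 to 5 for H133W against SIRT6 with TNFα. Same-numbered arrays of different groups did not deviate together (84 pairs, correlations -0.477 to 0.415, median 0.009), so the numbers do not pair the arrays. No called change turned its sign in any alternative. Of 794 recomputed values of named members 24 had the other sign, all of uncalled changes of at most 0.20, among them H1-4, H2BC12 and H2BC6 with TNFα, which were -0.08, -0.01 and -0.01 without H133W array 3. The precision is limited by 3 arrays a group.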
